A study of Mus musculus with 18 samples.

Results

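The mouse zinc finger genes numbered Zfp900 to Zfp999 were examined in bone marrow-derived mast cells with and without a Cre driver for deletion of Sirt6. Members were all genes annotated as protein-coding whose symbol is Zfp9 followed by 2 digits, which gave 60 of the 45777 genes in the deposited table. The set was chosen by expression at level 60, where such genes were among the falls, so values that use the level 60 libraries are given as a description. The study measured RNA by sequencing in 18 libraries, with 3 in each of 6 groups. KO cells carried LysM-Cre and Sirt6 flox/flox, and WT cells carried Sirt6 flox/flox without the Cre. LysM-Cre is expressed from the lysozyme M locus and is active in myeloid cells, so deletion depends on the activity of that locus in each cell. Both genotypes were sampled at levels 0, 20 and 60, whose unit is not given in the labels. The labels name LPS as the treatment at 20 and 60 and no treatment at 0. The series title names FcεRI signaling instead, the response of mast cells to IgE and antigen, so what levels 20 and 60 stand for is not settled here. Each library also carries a number, 4120, 414 or 6110, which recurs in both genotypes and at every level. Libraries of 1 genotype with the same number are called a culture here, since the labels do not say what the number stands for. Nothing in the labels says that the 3 cultures of a genotype came from separate animals, so a p-value measures the spread between these libraries, which may be technical.

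Most of these genes encode proteins with a Krüppel-associated box (KRAB) followed by a run of C2H2 zinc fingers. The fingers bind DNA, often within transposable elements, and the KRAB domain recruits the corepressor TRIM28 (KAP1), which in turn brings the histone methyltransferase SETDB1 and leads to histone H3 lysine 9 trimethylation. The family grew by repeated local duplication, so that many members lie side by side and share long stretches of sequence. ZFP932 is known in mouse to repress endogenous retroviruses, and SIRT6 is known to modify TRIM28 at LINE-1 elements. For most other members no target or role is established well enough to be named here.

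The libraries held 20026054 to 42265435 counts each, and the share of counts on mitochondrial genes ran from 4.09% to 41.9%. Summed mast cell markers were at 8879 to 40753 TPM in every library, against at most 4.53 TPM for erythroid and 0.517 TPM for B cell markers. Neutrophil markers summed to 13.8 to 85.2 TPM in KO libraries, against 0 to 14.2 TPM in WT libraries, macrophage markers to 4.44 to 26.1 TPM, against 2.33 to 6.79 TPM, and T cell markers to 3.22 to 22.9 TPM, against 0 to 13.5 TPM. Single genes carried 2 of these sums. Among T cell markers Trbc1 reached 22.6 TPM, while Cd3e was at most 0.473 TPM, Cd8a at most 0.0211 TPM and Cd3g had 0 counts. Among macrophage markers Cd14 reached 20.8 TPM and Adgre1 4.75 TPM, while Csf1r, Mrc1, C1qa, C1qb and Itgam were at most 0.676 TPM. The T cell and macrophage sums thus do not show that these cell types were present. The neutrophil sum was spread over more genes. S100a9 reached 40.7 TPM, S100a8 23.3 TPM, Ly6g 11.7 TPM, Ngp 7.29 TPM, Camp 6.27 TPM, Lcn2 4.15 TPM and Ltf 2.73 TPM. Whether neutrophils were present in the KO cultures was not tested. The part of these markers in the values below was not tested. Sirt6 itself had summed counts of 1756, 1607 and 1092 in KO groups at levels 0, 20 and 60, against 1178, 1336 and 930 in WT groups. The count per gene includes exons outside the deleted part, so it does not check the deletion. Lyz2, the gene that holds the Cre in this driver, had 9, 10 and 6 counts in the KO groups, against 156, 172 and 186 in the WT groups. In bulk RNA, fewer cells of a type and less RNA per cell cannot be told apart.

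In sequence the members were a KRAB family nearly throughout. Of 59 members with a translated transcript in the annotation, 55 (93.2%) held a KRAB box by a pattern that needed 8 of 12 positions, against 135 of 301 other Zfp genes (44.9%). Zfp956, Zfp957, Zfp972 and Zfp974 did not hold it. The count of C2H2 fingers ran from 0 to 21 with a median of 11. Each gene was scored on its longest translated transcript only. That transcript was short for Zfp935 (150 residues) and Zfp972 (139 residues), both with 0 fingers. Their features, and the sequence shares below, hold for the transcript scored. On GRCm38, 41 members lay in 6 clusters in which neighbours start within 1 Mb, and 19 lay alone. Chromosome 4 held the largest cluster, with 13 members between chr4:145510759-147849126. Chromosome 17 held 10 at chr17:21565816-22867309 and chromosome 2 held 9 at chr2:175372034-178078425. Smaller clusters held 4 members at chr7:42579397-43192109, 3 at chr8:69209018-69749962 and 2 at chr13:62453016-62579321.

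How far the counts of single members can be trusted depends on these duplications. The median member shared 9.39% of its 75-base stretches with another annotated transcript. For 12 members the share was over 50%, and Zfp935, Zfp965 and Zfp967 shared all of theirs, with Zfp965 matched by Zfp973. Another 12 members shared none, among them Zfp948, Zfp949, Zfp950, Zfp951 and Zfp952. Several genes of the chromosome 4 cluster also overlap on the genome, Zfp978 with Zfp991 and Zfp981 with Zfp993. The strand of the libraries is not given, so reads of overlapping genes cannot be told apart.

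The promoters of 4 members whose level differed widely between cultures are shown first, because their levels are given in every library below. Each is the 250 bases before a start site from RefSeq on GRCm38.p6, the first listed for each gene, read 5′ to 3′ on the gene's strand. They are chr9:88547770-88548019 on the plus strand for Zfp949, chr5:104860028-104860277 on the minus strand for Zfp951, chr7:39449261-39449510 on the plus strand for Zfp939 and chr17:21566728-21566977 on the plus strand for Zfp948. Capitals mark the CCAAT box on either strand (CCAAT or ATTGG).
Zfp949: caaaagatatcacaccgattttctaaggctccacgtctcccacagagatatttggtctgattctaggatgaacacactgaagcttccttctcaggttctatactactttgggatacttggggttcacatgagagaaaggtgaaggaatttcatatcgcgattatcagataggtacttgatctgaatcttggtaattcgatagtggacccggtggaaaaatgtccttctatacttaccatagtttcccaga
Zfp951: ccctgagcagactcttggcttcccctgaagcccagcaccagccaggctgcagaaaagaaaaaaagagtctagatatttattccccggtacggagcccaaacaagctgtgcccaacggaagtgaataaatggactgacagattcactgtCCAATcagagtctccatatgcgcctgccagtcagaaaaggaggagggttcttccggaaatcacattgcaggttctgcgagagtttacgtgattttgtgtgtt
Zfp939: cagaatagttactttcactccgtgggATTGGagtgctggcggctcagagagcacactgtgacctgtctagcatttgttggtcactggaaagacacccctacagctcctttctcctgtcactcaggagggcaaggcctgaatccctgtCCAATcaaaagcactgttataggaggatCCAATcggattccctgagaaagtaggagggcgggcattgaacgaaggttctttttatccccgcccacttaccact
Zfp948: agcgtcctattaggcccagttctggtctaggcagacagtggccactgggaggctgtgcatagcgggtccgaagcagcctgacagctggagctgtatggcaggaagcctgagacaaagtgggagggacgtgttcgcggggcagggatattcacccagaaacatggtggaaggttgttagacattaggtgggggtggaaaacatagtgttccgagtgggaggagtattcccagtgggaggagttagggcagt
Zfp939 held 3 such boxes and Zfp951 held 1, while the letters were not found in the windows of Zfp949 and Zfp948. The window of Zfp948 lies inside the annotated gene, which starts at chr17:21565816. Those of Zfp951 and Zfp939, which have 2 listed promoters each, run into their genes. The counts of boxes hold for these windows only.

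The next promoters belong to the 3 members with edgeR calls between level 60 and level 0 in KO cells. They are chr17:22867135-22867384 for Zfp945, chr7:42692719-42692968 for Zfp975 and chr8:69749963-69750212 for Zfp963, all on the minus strand, with the same marks.
Zfp945: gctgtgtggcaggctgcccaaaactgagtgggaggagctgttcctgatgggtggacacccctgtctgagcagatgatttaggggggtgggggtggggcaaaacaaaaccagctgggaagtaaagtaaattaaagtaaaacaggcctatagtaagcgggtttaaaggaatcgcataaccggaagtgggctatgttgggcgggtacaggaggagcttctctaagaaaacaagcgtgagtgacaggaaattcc
Zfp975: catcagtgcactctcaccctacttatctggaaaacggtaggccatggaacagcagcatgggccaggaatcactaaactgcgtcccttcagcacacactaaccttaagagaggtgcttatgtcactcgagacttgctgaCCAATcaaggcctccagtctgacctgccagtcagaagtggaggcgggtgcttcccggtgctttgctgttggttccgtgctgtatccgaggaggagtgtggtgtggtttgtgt
Zfp963: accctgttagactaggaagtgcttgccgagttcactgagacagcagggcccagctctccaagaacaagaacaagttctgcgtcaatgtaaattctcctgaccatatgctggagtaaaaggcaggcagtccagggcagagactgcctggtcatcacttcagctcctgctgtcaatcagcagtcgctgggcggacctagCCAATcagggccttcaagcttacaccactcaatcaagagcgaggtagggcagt
Zfp975 and Zfp963 held 1 box each and Zfp945 held none. The windows of Zfp945 and Zfp975 run into their annotated genes.

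Over the 300-base windows, which add 50 bases after the start, 53 members had a promoter in the table. A CCAAT box was found in 40 of these (75.5%), against 37.9% of all 27025 promoters and 44.6% of the promoters of other Zfp genes. The letters GGGCGG of a GC box were in 18 (34.0%), against 35.9% of all promoters. TATAAA was in 0 member promoters, against 14.2% of all. The cAMP response element TGACGTCA was in that of Zfp953 alone (1.89%, against 1.88% of all), and GCCATNTTG, a YY1 type motif, was in those of Zfp977 and Zfp936 (3.77%, against 2.65%). A palindromic motif around CGCG was in none, against 0.496% of all. All motifs were searched on both strands, and the promoters of a cluster are related by descent, so they are not independent.

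At least 10 counts in 3 or more libraries were found for 51 of the 60 members (85%). The share was 88.5% among other Zfp genes and 60.3% among all protein-coding genes. The 9 members below this were Zfp936, Zfp957, Zfp972, Zfp977, Zfp978, Zfp980, Zfp985, Zfp990 and Zfp993. Zfp936 had 0 counts in all 18 libraries and Zfp990 had 2 in all. Just outside the limit was Zfp972, with 10 or more counts in 2 libraries, and just inside was Zfp987, with 10 or more in 5 libraries and 107 counts in all. The chromosome 17 cluster had all 10 of its members above the limit, the chromosome 4 cluster 8 of 13, the chromosome 2 cluster 8 of 9 and the chromosome 7 cluster 2 of 4. The same 51 members passed the filter of the test, and all counts of members below are out of these 51.

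Per length, Zfp949 stood far above the rest. Its mean over the 18 libraries was 195.5 TPM, while the median of the 51 members was 3.19 TPM and the lowest, Zfp987, was at 0.111 TPM. Zfp954 followed with 31.6 TPM, Zfp956 with 29.0 TPM, Zfp948 with 14.7 TPM, Zfp992 with 13.3 TPM and Zfp991 with 13.1 TPM. The other 45 members were under 10 TPM, and 37 members were over 1 TPM. The median was 4.26 TPM for other Zfp genes and 6.18 TPM for all genes tested. Zfp949 alone made up 3.91% to 58.7% of the summed CPM of the members, depending on the library. Neighbours in this order often overlapped in their libraries, as the plot of levels at 20 shows.

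**Figure D1:**
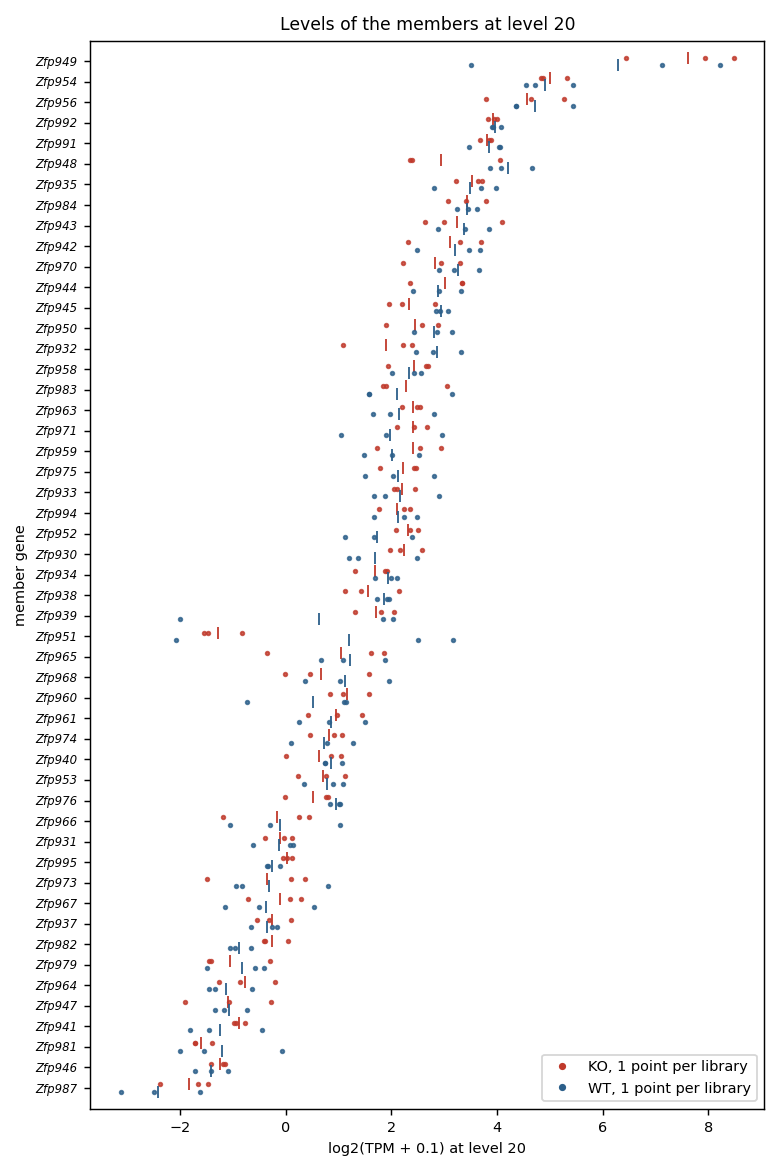
Level of each of the 51 members at level 20, as log2(TPM + 0.1), with KO libraries (red, upper row of each gene) and WT libraries (blue, lower row) as points and group means as ticks. Members run from Zfp949 at the top to Zfp987 at the bottom, and the points of Zfp949, Zfp951 and Zfp939 spread widest, with 1 or 2 WT libraries apart from the rest.

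The largest differences among the members were between cultures of 1 genotype, and they recurred at all 3 levels. Zfp949 had 764, 535 and 460 CPM in KO 4120 at levels 0, 20 and 60, 263, 162 and 214 CPM in KO 414, and 327, 397 and 234 CPM in KO 6110. In WT 4120 it had 577, 361 and 376 CPM, in WT 414 615, 433 and 480 CPM, and in WT 6110 24.8, 23.8 and 17.9 CPM. WT 6110 thus lay below every other culture at every level, and its 3 libraries held 2163 counts of Zfp949, against 14171 to 58407 in the other cultures. Zfp951 showed another split. It had 0.400, 0.555 and 0.272 CPM in KO 4120, 0.997, 0.636 and 0.489 CPM in KO 414 and 1.63, 1.06 and 0.390 CPM in KO 6110. The WT cultures differed among themselves, with 24.2, 17.045 and 8.50 CPM in WT 4120, 11.9, 10.6 and 9.95 CPM in WT 414, and 0.407, 0.396 and 0.485 CPM in WT 6110. WT 6110 lay within the range of the KO cultures, so the high level belonged to 2 of 3 WT cultures.

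Zfp939 was low in a single culture as well. It had 11.4, 8.20 and 6.13 CPM in KO 4120, 9.23, 6.66 and 4.40 CPM in KO 414, and 7.09, 7.01 and 4.29 CPM in KO 6110. Its values were 14.4, 10.2 and 7.47 CPM in WT 4120 and 7.73, 8.35 and 5.22 CPM in WT 6110, but 0, 0.244 and 0.265 CPM in WT 414. Those last 3 libraries held 13 counts of Zfp939 together, while each other culture held 472 to 853. Zfp948 was low in KO 6110, with 4.34, 7.32 and 6.58 CPM at the 3 levels. The other 15 libraries were at 26.2 to 51.8 CPM except KO 414 at level 20, which was at 13.3 CPM.

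**Figure D2:**
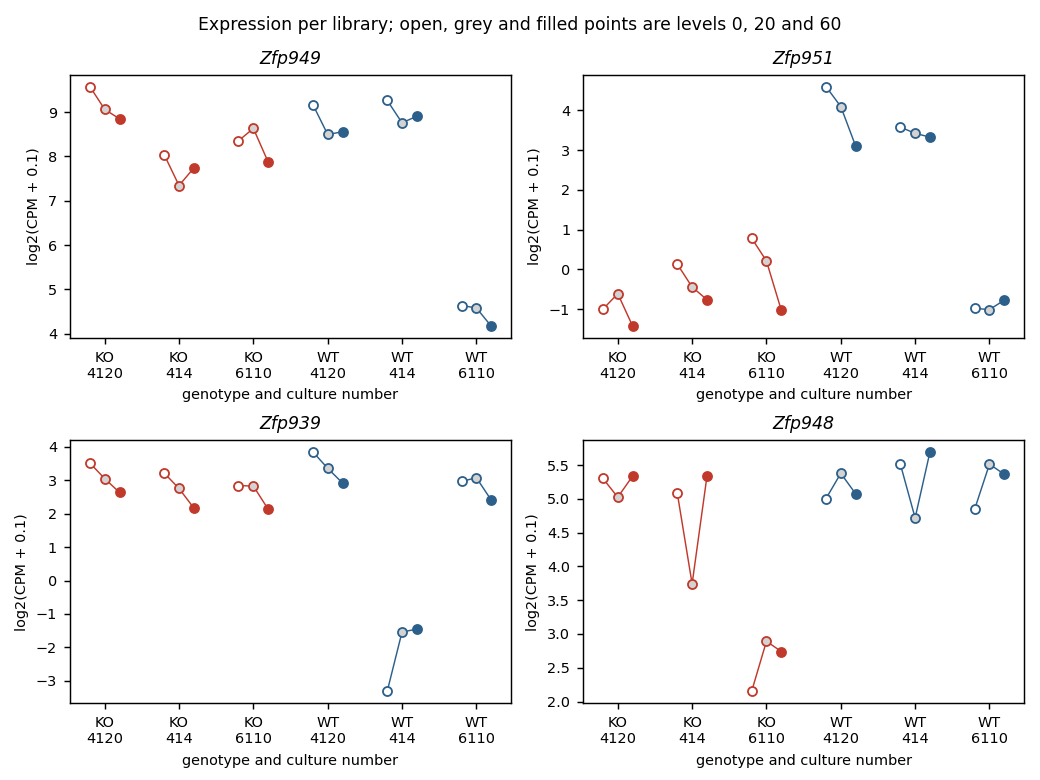
Expression of Zfp949, Zfp951, Zfp939 and Zfp948 in each library as log2(CPM + 0.1), with KO cultures (red) left of WT cultures (blue) and open, grey and filled points for levels 0, 20 and 60. Zfp949 is low in WT 6110, Zfp951 is high in WT 4120 and WT 414, Zfp939 is low in WT 414 and Zfp948 is low in KO 6110, at all 3 levels.

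These 4 genes shared no 75-base stretch with another gene where this could be computed (Zfp939 has no translated transcript and was not scored). Another 4 members, chosen after their values were seen, had 1 culture apart from the others. Zfp965 averaged 1.42 CPM over the levels in KO 414, against 5.26 to 6.67 CPM in the other 5 cultures, and its near-copy Zfp973 averaged 0.0748 CPM there, against 0.460 to 0.859 CPM. Zfp968 was also lowest in KO 414 (1.16 CPM, against 2.35 to 4.48 CPM), and Zfp960 was lowest in WT 4120 (0.796 CPM, against 2.04 to 3.68 CPM). Reads of Zfp965 and Zfp973, which share most of their sequence, cannot be told apart with confidence, nor can those of Zfp968 and its near-copy Zfp966. A range of over 8-fold between cultures of 1 genotype was found for 4 of the 51 members (Zfp939, Zfp949, Zfp951 and Zfp973), which is 7.84%. The same range was found for 2.62% of all genes and 0.746% of other Zfp genes. Among genes of at least 5 CPM, 2 of 27 members had it, against 0.931% of genes. The median member was not unusual in this respect, with 47.6% of its variance between cultures, against 54.1% for all genes.

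Some genes near these members also differed between cultures. Of 30 tested genes within 1 Mb of Zfp951, 21 had a range of over 2-fold within a genotype and 4 of over 8-fold (Zfp33b, Gbp8, Gm9640 and Gm32276). Zfp33b, a zinc finger gene, averaged 12.7, 14.7 and 19.2 CPM in KO 4120, 414 and 6110, against 0.106, 8.54 and 20.8 CPM in WT 4120, 414 and 6110. Gbp8, of the guanylate-binding protein family, averaged 3.03, 2.69 and 3.57 CPM in these KO cultures, against 0.639, 7.80 and 9.27 CPM in the WT cultures. Both were thus lowest in WT 4120, the culture in which Zfp951 was highest, while Gm9640 was highest there (2.76 CPM, against 0 to 0.957 CPM in the other 5). Of 5 tested neighbours of Zfp939, 3 had a range of over 2-fold, and Gm28455, 37.9 kb away, was at 0 counts in WT 414, against 0.525 to 1.40 CPM in the other cultures. Near Zfp948, 8 of 24 tested genes had a range of over 2-fold, and 2 of these were lowest in KO 6110 like Zfp948. One was Zfp52, a zinc finger gene 32.1 kb away, which averaged 70.1, 53.7 and 25.3 CPM in KO 4120, 414 and 6110, against 58.5, 70.1 and 63.9 CPM in the WT cultures. Near Zfp949 it was 6 of 15. None of these 24 and 15 genes had a range of over 8-fold. The median log2 range of the tested neighbours was 1.45 near Zfp951 and 1.04 near Zfp939. Near Zfp948 and Zfp949 it was 0.71 and 0.74, against 0.75 for all genes, so the median range there was not unusual. Some neighbours of Zfp949 were nonetheless highest in WT 6110, where Zfp949 was low. Among them, named after their values were seen, Mthfsl averaged 21.1 CPM there, against 10.9 to 14.3 CPM in the other cultures. Bcl2a1d averaged 2.45 CPM there, against 0.194 to 0.668 CPM. Of the 6 with a range of over 2-fold, 1 was lowest in WT 6110.

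Zfp942 and Zfp943 lie head to head on chromosome 17 with 55 bases between them. Their log2 CPM differed by −0.61 to 0.55 over the 18 libraries (Zfp942 minus Zfp943), and Pearson's r was 0.835, a description over libraries that share cultures and scaling.

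The comparison of KO with WT at level 20 used libraries that the choice of members did not. It asked which members differ between the genotypes at level 20, and 0 of 51 were called at an adjusted p under 0.05 by edgeR's quasi-likelihood test, against 0.21% of all 17159 genes. DESeq2 also called 0. At an unadjusted p under 0.05 there were 3 members (Zfp945, Zfp951 and Zfp932), against 7.76% of all genes. In simulated data for this comparison the test recovered 21.2% of genes changed 2-fold, 75.4% changed 4-fold and 98.4% changed 8-fold, so a change of 2-fold would mostly be missed. The genes changed there all had a mean of at least 5 CPM, a level that 27 of the 51 members reached. The simulated libraries were independent, without cultures shared between levels. These shares therefore do not cover the lower members.

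Values in the single libraries show what stands behind these. Zfp945 had 21.4, 14.5 and 14.6 CPM in KO 4120, 414 and 6110, against 42.8, 22.2 and 28.1 CPM in the WT libraries of the same numbers. All 3 KO libraries lay below all 3 WT libraries, with a log2 fold change of −0.88 (SE 0.29, adjusted p = 0.504 by edgeR). Zfp932, a repressor of endogenous retroviruses, had 12.1, 6.36 and 13.7 CPM in KO, against 16.2, 22.0 and 15.5 CPM in WT, again without overlap (log2 fold change −0.74, SE 0.31, adjusted p = 0.613 by edgeR). Zfp932 was named after its values were seen, and 39.6% of its 75-base stretches occur elsewhere, mostly in Gm15446.

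For Zfp951 the groups overlapped through WT 6110, and the log2 fold change was −3.62 (SE 1.29, adjusted p = 0.549 by edgeR). Without the libraries numbered 6110, in which both genotypes were low, it was −4.52 and edgeR called it. That number was left out after the values were seen and holds the WT culture with low Zfp951, so the call rests on this choice. Zfp948 had a log2 fold change of −1.09 (SE 0.70) and Zfp949 one of 0.42 (SE 1.09), and both overlapped. That of Zfp949 turned to −0.11 without the WT 6110 library. Zfp982, known from mouse embryonic stem cells, had 1.37, 1.68 and 2.06 CPM in KO, against 1.35, 1.10 and 1.13 CPM in WT, and was the only member with all KO libraries above all WT libraries at this level (log2 fold change 0.52, SE 0.34), against 8.36% of all genes. Zfp960 had 2.16, 3.22 and 3.80 CPM in KO, against 1.08, 2.50 and 3.48 CPM in WT, with overlap (log2 fold change 0.37, SE 0.64). With libraries left out, Zfp960 ran from 0.036, without WT 4120, to 0.77, without WT 6110, and Zfp948 ran from −1.88, without KO 4120, to −0.55, without all libraries numbered 6110.

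Over the 51 members, 36 had a negative log2 fold change at level 20. The median was −0.17, against −0.10 for other Zfp genes and −0.02 for all genes. The sign of this median depended on the scaling: on deposited TPM it was 0.02, where the median of all genes was 0.20. Without the libraries numbered 414 it was −0.0044. All KO libraries lay below all WT libraries for 6 members (Zfp932, Zfp934, Zfp945, Zfp950, Zfp970 and Zfp976), while 8.95% of all genes did so.

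At level 0 the genotypes could be compared as well, with libraries that also serve as the baseline of the level 60 contrasts. Here 0 of 51 members were called by edgeR, against 0.274% of all genes, and DESeq2 called 0. One unadjusted p was under 0.05, that of Zfp951 (log2 fold change −3.57, SE 1.27, adjusted p = 0.315 by edgeR), against 12.1% of all genes. The members' median was 0.16, with 32 positive values, against 0.03 for other Zfp genes and 0.01 for all genes. In no member did the 3 KO libraries lie wholly below or above the WT libraries, while 7.14% of all genes lay below and 5.94% above. Without the libraries numbered 6110 the median was −0.03, so its sign rested on them.

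The response at level 20 was tested in each genotype, again with the level 0 libraries as baseline. In KO cells 0 members were called by edgeR for 20 against 0, against 0.449% of all genes, and 0 had an unadjusted p under 0.05, against 3.22% of all genes. In WT cells 0 were called, against 0.6% of all genes, and 3 had an unadjusted p under 0.05 (Zfp952, Zfp933 and Zfp935), against 5.78% of all genes. Zfp952 had 8.23, 9.05 and 6.44 CPM at level 20 in KO 4120, 414 and 6110, against 10.7, 12.3 and 11.0 CPM at level 0. In WT cells it had 4.98, 7.35 and 6.43 CPM at level 20, against 9.28, 13.4 and 8.95 CPM at level 0. All libraries at 20 lay below those at 0 in both genotypes, with log2 fold changes of −0.52 (SE 0.25) in KO and −0.75 (SE 0.25) in WT cells, and an adjusted p of 0.431 by edgeR for the WT value. Such a lack of overlap on the lower side was found in KO cells for 5 members (Zfp950, Zfp952, Zfp959, Zfp963 and Zfp974), while 3.9% of all genes had it, and in WT cells for Zfp952 and Zfp959, while 4.35% of all genes had it.

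Most members had lower values at 20 than at 0 in KO cells, and the size of this rested on 1 library. The median log2 fold change was −0.29 in KO cells with 42 of 51 members negative, against −0.01 with 26 negative in WT cells. Other Zfp genes had −0.18 in KO and −0.04 in WT cells, and all genes −0.03 and −0.02. Within the cultures the medians at 20 were −0.01 in KO 4120, −0.52 in KO 414 and −0.09 in KO 6110, against 0.15, −0.24 and 0.15 in WT 4120, 414 and 6110. The mitochondrial share was 8.21% at 20 and 27.2% at 0 in KO 414, and 6.56% at 20 and 17.8% at 0 in WT 414. With that share as a covariate the KO median was −0.28. Without the KO 414 library at 20 it was −0.11. The difference in response between the genotypes was tested too: 0 members were called by edgeR, against 0% of all genes, and 0 had an unadjusted p under 0.05, against 0.39% of all genes, while DESeq2 called 0 members. The members' median of this difference was −0.29, with 43 of 51 negative, and −0.15 without the KO 414 library at 20.

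What follows uses the level 60 libraries, on which the set was proposed, and is a description. At level 60 the members were lower than at level 0 in KO cells as a group. The median log2 fold change was −0.61, with 46 of 51 negative, against −0.37 for other Zfp genes and 0.00 for all genes. In WT cells the median was −0.01 with 27 negative, against −0.07 for other Zfp genes and −0.02 for all genes. The difference of the responses had a median of −0.47 and was negative for 48 members, against −0.26 for other Zfp genes and 0.02 for all genes. Both responses are measured from the level 0 libraries of their own genotype. On library sizes alone the KO median was −0.82, where that of all genes was −0.22, and on deposited TPM it was −0.77, where that of all genes was −0.25.

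**Figure D3:**
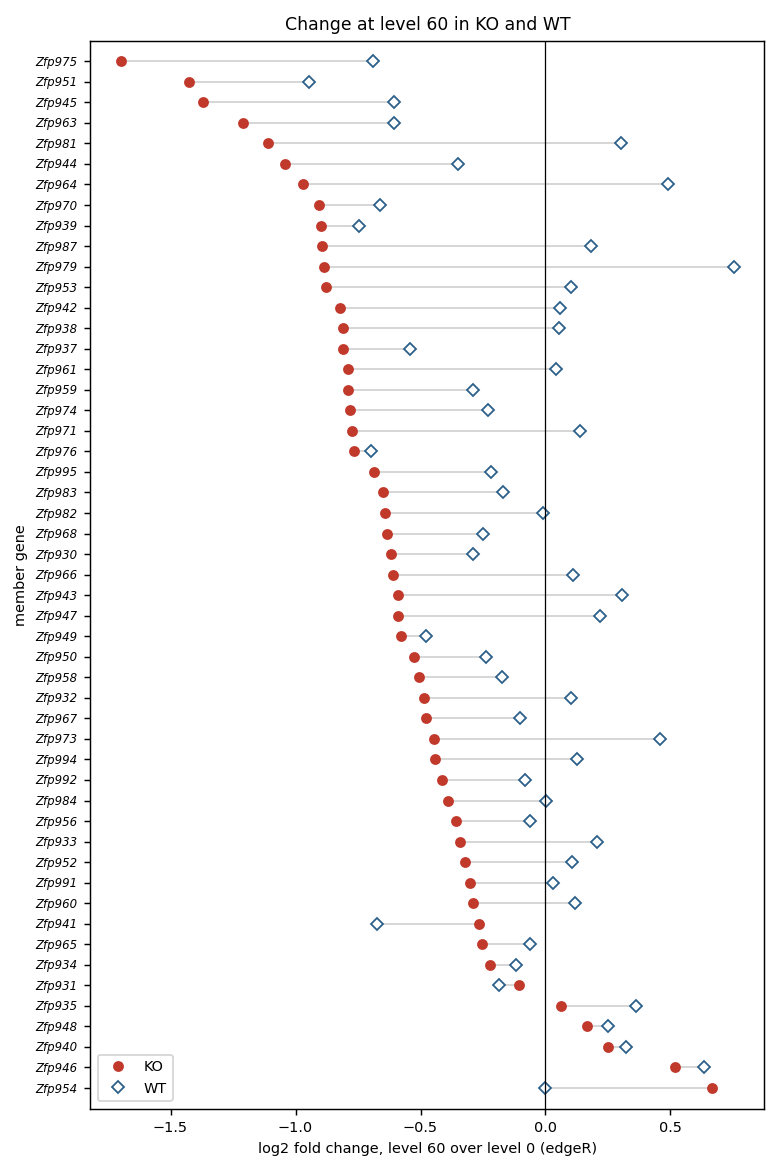
Log2 fold change of level 60 over level 0 for the 51 members in KO cells (red circles) and WT cells (open blue diamonds), sorted by the KO value. Most KO values lie left of 0 and of the WT value, with a median of −0.61 in KO and −0.01 in WT cells.

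Every KO culture showed this, to different degrees. The median change at 60 was −0.37 in KO 4120, −0.51 in KO 414 and −0.72 in KO 6110, with 39, 44 and 48 members lower. In WT cultures it was 0.02, −0.05 and 0.03 for 4120, 414 and 6110, with 24, 30 and 24 members lower. Other Zfp genes had −0.35, −0.29 and −0.49 in the KO cultures and −0.03, −0.11 and −0.08 in the WT cultures, and all genes had medians within 0.03 of 0. The mitochondrial share at 60 was 4.47%, 34.7% and 4.29% in KO 4120, 414 and 6110, against 10.2%, 27.2% and 4.09% at level 0. In WT 4120, 414 and 6110 it was 8.84%, 41.9% and 15.8% at 60, against 39.1%, 17.8% and 11.1% at level 0. The median was as large with that share as a covariate (−0.65 in KO cells). In all 3 KO cultures 37 members were lower at 60 and 2 were higher. In all 3 WT cultures 9 were lower and 9 were higher, so WT cells showed no common direction. Lower in all 6 cultures were Zfp945, Zfp949, Zfp950, Zfp959, Zfp963, Zfp970, Zfp974 and Zfp975. The share of all genes with such agreement is not given here.

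**Figure D4:**
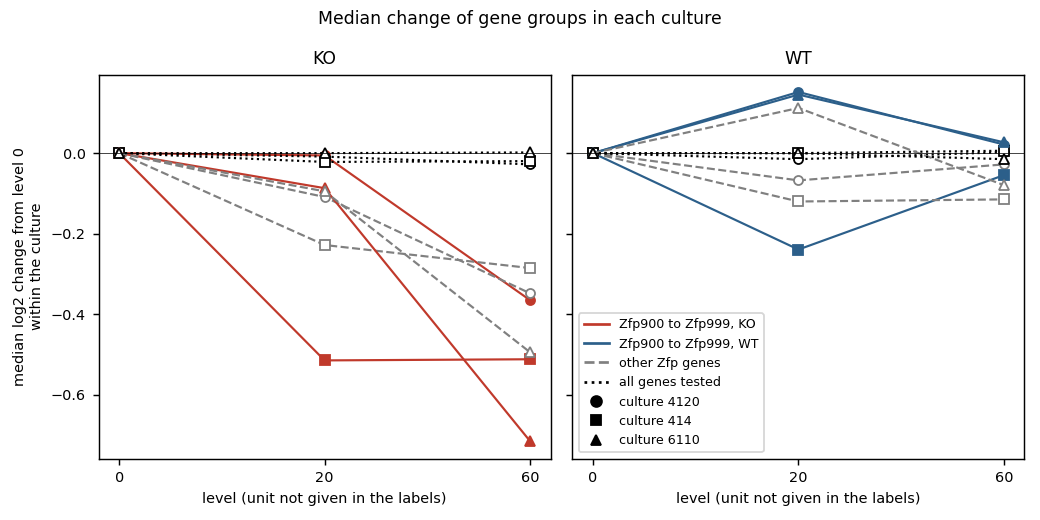
Median log2 change from level 0 within each culture, with KO left and WT right, for the 51 members (solid), other Zfp genes (dashed) and all genes tested (dotted), and a marker shape per culture number. At level 60 the members' medians are −0.37 to −0.72 in KO cultures and within 0.06 of 0 in WT cultures.

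The members with calls at level 60 were Zfp945, Zfp975 and Zfp963. For 60 against 0 in KO cells, 3 members were called by edgeR, while 2.54% of all genes were called in either direction and 0.559% lower. Of 268 other Zfp genes 15 were called, 12 of them lower, so such calls were not particular to the members. At an unadjusted p under 0.05 by edgeR there were 13 members and 80 other Zfp genes, against 14.2% of all genes. With the replicate number as a block, 5 members were called (also Zfp954 and Zfp959). The block was an effect per number shared by both genotypes, so it did not pair libraries within a KO culture. The share of all genes called with the block is not given here. Zfp945 had 13.6, 9.97 and 6.22 CPM at 60 in KO 4120, 414 and 6110, against 31.5, 25.5 and 20.1 CPM at 0, without overlap (log2 fold change −1.37, SE 0.30). In WT cells it had 20.9, 24.2 and 18.6 CPM at 60, against 38.7, 30.5 and 27.8 CPM at 0, also without overlap (log2 fold change −0.61). At 60 all 3 KO libraries lay below the WT libraries.

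Zfp975 had 3.14, 2.81 and 2.56 CPM at 60 in KO cells, against 8.53, 11.3 and 7.87 CPM at 0 (log2 fold change −1.70, SE 0.30). WT cells had 4.55, 5.88 and 3.34 CPM at 60, against 5.90, 10.8 and 5.41 CPM at 0, with overlap (log2 fold change −0.69). It was also the single member called for 60 against 20 in KO cells (log2 fold change −1.41), where 1.11% of all genes were called. That call was lost when any 1 of the 6 libraries was left out. With the block 3 members were called, and the share of all genes called with it is not given here. Its neighbour Zfp976 had 2.60, 3.36 and 1.68 CPM at 60 in KO cells, against 4.99, 5.11 and 2.82 CPM at 0, with overlap.

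Zfp963 had 3.35, 3.91 and 2.80 CPM at 60 in KO cells, against 8.11, 8.69 and 6.47 CPM at 0 (log2 fold change −1.21, SE 0.29). In WT cells it had 6.41, 4.87 and 3.28 CPM at 60, against 7.68, 9.76 and 4.73 CPM at 0, with overlap (log2 fold change −0.61). Of its 75-base stretches 39.1% occur elsewhere, mostly in Gm20422. The 3 calls shrank to Zfp975 alone without KO 4120 or KO 414 at level 0 or KO 414 at level 60, and to none without all libraries of any 1 number. All KO libraries at 60 lay below all at 0 for 15 members, while 10.3% of all genes did so, and all WT libraries for 2 (Zfp941 and Zfp945), while 4.8% of all genes did so.

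The cluster medians in KO cells at 60 against 0 ran from −1.23 to −0.53. The median was −0.53 for the 8 tested members on chromosome 4 and −0.54 for the 8 on chromosome 2, with all 16 negative. On chromosome 17 it was −0.62, with 8 of 10 negative, and for the 3 on chromosome 8 it was −0.97. The pair tested on chromosome 7, Zfp975 and Zfp976, had a median of −1.23. The 20 members outside clusters of 3 or more had −0.51, with 17 negative. In WT cells the medians of the chromosome 4, 17 and 2 clusters were 0.11, 0.09 and −0.08. That of the pair on chromosome 7 was −0.69, with both negative, and that of the 3 on chromosome 8 was −0.29, with 2 negative. Among the 22 tested members with under 5% shared sequence the KO median was −0.60.

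Members on the other side were few. Zfp954 had 54.8, 50.8 and 39.4 CPM at 60 in KO 4120, 414 and 6110, against 35.6, 32.3 and 23.6 CPM at 0, without overlap, which 9.18% of all genes showed on the higher side (log2 fold change 0.66, SE 0.20). WT cells had 39.1, 38.5 and 38.7 CPM at 60, against 48.8, 38.1 and 29.7 CPM at 0 (log2 fold change 0.00 after rounding). It was the single member with all KO libraries above all WT libraries at 60, while 7.34% of all genes were. The other positive values in KO cells were 0.52 for Zfp946, 0.25 for Zfp940, 0.17 for Zfp948 and 0.06 for Zfp935, and those of Zfp940 and Zfp948 were −0.04 and −0.03 on library sizes alone, where the median of all genes was −0.22. Zfp940 was also −0.13 without the libraries numbered 414, and Zfp948 was −0.34 without the KO 6110 library at 0. In WT cells the most positive among members of at least 1 CPM were Zfp935 (0.36), Zfp940 (0.32) and Zfp943 (0.31), and the most negative were Zfp951 (−0.95), Zfp939 (−0.74) and Zfp976 (−0.70). Several of these WT values rested on number 4120: without the WT 4120 library at 0, Zfp951 turned to 0.059 and Zfp939 to 0.19, and without all libraries numbered 4120 Zfp976 was −0.091 and Zfp943 was 0.017. Over all libraries left out, Zfp951 ran from −1.52 to 0.059, Zfp939 from −1.38 to 0.19, Zfp976 from −0.97 to −0.091 and Zfp943 from 0.017 to 0.66.

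Of these, the groups of Zfp935, Zfp940, Zfp943 and Zfp976 overlapped in both genotypes. Zfp935 had 12.4, 16.8 and 14.9 CPM at 60 in WT 4120, 414 and 6110, against 8.66, 12.98 and 12.6 CPM at 0. In KO cells it had 12.01, 12.7 and 14.7 CPM at 60, against 9.10, 14.0 and 14.7 CPM at 0. All of the transcript scored for Zfp935 is shared, mostly with Gm49359, so its reads are uncertain. Zfp940 had 3.69, 4.71 and 4.88 CPM at 60 in WT cells, against 4.30, 3.29 and 3.07 CPM at 0, and 3.11, 4.83 and 3.07 CPM at 60 in KO cells, against 3.68, 2.41 and 3.10 CPM at 0. Zfp943 had 15.9, 6.91 and 8.26 CPM at 60 in KO cells, against 16.6, 15.7 and 14.6 CPM at 0. In WT cells Zfp943 had 18.4, 12.9 and 17.01 CPM at 60, against 9.40, 16.2 and 13.3 CPM at 0. Its KO values at 60 were low in 414 and 6110 but not in 4120. Zfp976 had 3.46, 4.66 and 4.03 CPM at 60 in WT cells, against 10.5, 5.40 and 3.85 CPM at 0, so that its WT change was mostly that of 4120.

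KO against WT at level 60 had 0 member calls by edgeR, against 0.262% of all genes. DESeq2 called 2 (Zfp945 and Zfp951), and with the block Zfp945 was called. The shares of all genes called by DESeq2 and with the block are not given here. The median was −0.40, with 43 of 51 negative, against −0.23 for other Zfp genes and 0.02 for all genes. All KO libraries lay below all WT libraries for 10 members, while 7.86% of all genes did so. Within the numbers 4120, 414 and 6110 the median of KO minus WT was −0.28, −0.63 and −0.28 at level 60, against 0.20, −0.23 and 0.36 at level 0. In WT cells 0 members were called for 60 against 0, where 0.221% of all genes were called, and 0 for 60 against 20, where 0.443% were. For the difference in response at 60, 0 members and 0% of all genes were called.

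The most abundant members gave a mixed account. Zfp949 had log2 fold changes at 60 of −0.58 in KO and −0.48 in WT cells, each with an SE of 1.09. That SE includes the differences between cultures, which held 97.1% of the variance of Zfp949. Within a culture its largest range over the levels was 0.76 on the log2 scale, and it was lower at 60 in all 6 cultures. Zfp950 had −0.52 in KO and −0.24 in WT cells, Zfp970 −0.91 and −0.66, Zfp992 −0.41 and −0.08, Zfp956 −0.36 and −0.06, and Zfp984 −0.39 and 0.00. Per library, Zfp970 had 12.7, 15.9 and 9.58 CPM at 60 in KO 4120, 414 and 6110, against 26.7, 22.7 and 21.9 CPM at 0, without overlap. In WT cells it had 23.1, 30.5 and 13.7 CPM at 60, against 47.9, 41.5 and 16.99 CPM at 0, with overlap through WT 6110. Zfp992 had 19.1, 34.9 and 19.8 CPM at 60 in KO cells, against 30.7, 45.8 and 21.9 CPM at 0, with overlap. In WT cells it had 17.9, 38.2 and 26.0 CPM at 60, against 29.1, 32.0 and 25.5 CPM at 0, also with overlap.

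Zfp956, which lacks the KRAB pattern, had 48.9, 33.2 and 23.8 CPM at 60 in KO 4120, 414 and 6110, against 66.4, 35.8 and 33.6 CPM at 0. In WT cells it had 62.3, 74.5 and 33.9 CPM at 60, against 73.0, 74.0 and 31.1 CPM at 0. Its cultures kept their order from level 0 to level 60 in KO cells, and WT 6110 was the lowest WT culture at both. Zfp950 had 19.9, 31.4 and 18.8 CPM at 60 in KO cells, against 32.9, 37.8 and 30.05 CPM at 0, and 32.1, 48.6 and 24.4 CPM at 60 in WT cells, against 49.1, 49.2 and 25.5 CPM at 0. Zfp984 had 18.8, 18.1 and 35.4 CPM at 60 in KO cells, against 18.8, 32.6 and 43.7 CPM at 0, and 18.9, 25.03 and 29.8 CPM at 60 in WT cells, against 12.96, 30.6 and 30.1 CPM at 0. The groups of both genes overlapped in both genotypes.

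Summed without Zfp949, the members made up 528 ± 34.2, 441 ± 61.9 and 393 ± 47.5 CPM in KO cells at levels 0, 20 and 60 (SD, n = 3 each). In WT cells the sums were 562 ± 121, 553 ± 33.3 and 518 ± 94.8 CPM. With Zfp949 the KO sums were 980 ± 278, 806 ± 250 and 696 ± 157 CPM, and the WT sums were 967 ± 446, 826 ± 246 and 810 ± 327 CPM, so this 1 gene carried most of the spread.

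The partners of KRAB zinc finger proteins were read from a list of 24 corepressor genes, of which 23 were tested. None was called by edgeR for KO against WT at 0, 20 or 60 or for 20 against 0 in either genotype, with 3, 1, 0, 3 (WT) and 0 (KO) unadjusted p under 0.05. Among all genes 12.1%, 7.76% and 10.8% had such a p for KO against WT at 0, 20 and 60, and for 20 against 0 5.78% had it in WT and 3.22% in KO cells. Trim28, the central corepressor, had 101 ± 14.7, 107 ± 3.16 and 93.7 ± 24.9 CPM in KO cells at levels 0, 20 and 60 and 106 ± 18.1, 104 ± 15.9 and 90.9 ± 17.05 CPM in WT cells (SD, n = 3 each). Its log2 fold change of KO over WT was −0.07, 0.04 and 0.04 at the 3 levels, each with an SE of 0.22. Setdb1, the histone methyltransferase of the complex, had 30.5 ± 4.77, 29.3 ± 4.95 and 19.3 ± 3.91 CPM in KO cells and 28.4 ± 6.97, 29.5 ± 5.23 and 18.6 ± 2.78 CPM in WT cells. At 60 against 0 it had −0.67 in KO (SE 0.23, adjusted p = 0.152 by edgeR) and −0.61 in WT cells (SE 0.23, adjusted p = 0.423 by edgeR).

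Atf7ip, which stabilises SETDB1, was the single gene of that list with calls. It had 32.1 ± 3.16, 33.5 ± 3.06 and 18.9 ± 0.444 CPM in KO cells at levels 0, 20 and 60, and 23.7 ± 1.05, 33.4 ± 4.52 and 19.2 ± 2.98 CPM in WT cells (SD, n = 3 each). It fell at 60 against 0 in KO cells (log2 fold change −0.76, SE 0.15, adjusted p = 0.0127 by edgeR), and at 60 against 20 in KO cells (−0.82, adjusted p = 0.0188) and in WT cells (−0.80, adjusted p = 0.0272). At 60 against 0 in WT cells it had −0.31 (adjusted p = 0.660 by edgeR). The difference between these responses was −0.45 (adjusted p = 1.00 by edgeR), so a difference between the genotypes was not shown. Over the 23 corepressors the median was −0.08 at 60 against 0 in KO cells and −0.02 in WT cells. The HUSH complex silences transposable elements with SETDB1. A list named for it held Tasor, Mphosph8, Pphln1 and Morc2a, and all 4 were tested. Their median at 60 against 0 was −0.50 in KO and −0.14 in WT cells. In KO cells 0 were called by edgeR and 1 had an unadjusted p under 0.05. Of all genes 2.54% were called there and 14.2% had such a p. The lowest KO value was that of Mphosph8 (−0.92, SE 0.54), a gene at 2.13 CPM in KO cells at level 0 and 1.12 CPM at level 60.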

How the data were processed

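Marrow cells were grown in mast cell medium and total RNA was taken to mRNA-Seq, per the labels' protocols. The tools named in the submitters' processing notes are StringTie 2.1.3b, HISAT2 2.1.0, FastQC 0.11.7 and bcl2fastq 2.20.0, with the mm10 build. The authors deposited a table with a read count, an FPKM and a TPM per gene and library, per the file headers. Counts were not normalized by the authors. The deposited FPKM values were not used, and the deposited TPM values served for levels and as an alternative.

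From the counts, genes kept by filterByExpr (17159) were scaled by TMM and fitted with edgeR 4.0.16 in R 4.3.3, by robust quasi-likelihood with 1 mean for each of the 6 groups over 18 libraries. Benjamini-Hochberg adjustment ran over all genes tested with a threshold of 0.05. CPM use TMM-scaled library sizes. Total counts limit precision to 0.150 CPM for 3 counts in the smallest library. Medians within cultures use log2 CPM with a prior count of 2. The members and gene lists were chosen with earlier results of these data known. Members given in every library were those called, the 8 with the highest mean CPM, and the 3 most negative and 3 most positive of at least 1 CPM for KO against WT at 20 and for 60 against 0 in each genotype, given for the comparison concerned. Alternatives used DESeq2 1.42.0, limma 3.58.1 (voom with the culture as a random effect, correlation 0.447, and log2(TPM + 0.1) or log2(TPM + 1)), other scalings, filters and groups, the mitochondrial share as a covariate, and libraries left out. The test was run on simulated data for KO against WT at 20 with 17159 genes, and 1 of 123 calls was false. Sequence features used GENCODE transcripts and RefSeq tables of GRCm38, in which all 60 members were found.

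The replicate number was taken to pair a comparison where deviations from the group means correlated above 0.1 for each number. It paired the genotypes at 60 (0.43 to 0.53), levels 20 and 0 in WT cells (0.62 to 0.76) and in KO cells (0.40 to 0.58), levels 60 and 0 in KO cells (0.33 to 0.67) and levels 60 and 20 in KO cells (0.37 to 0.60). The block in the fit was an effect per number, shared by both genotypes and all levels, so it did not pair libraries within a culture. The labels do not say what the number marks.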

Additional observations from a re-analysis of the deposited data

Results flagged for a closer look

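Zfp933, Zfp938, Zfp952 and Zfp960 were lower at level 60 than at level 0 in all 3 KO cultures and higher in all 3 WT cultures. The difference of their responses, KO minus WT, was −0.55 for Zfp933, −0.86 for Zfp938, −0.43 for Zfp952 and −0.41 for Zfp960 on the log2 scale. These differences use the level 60 libraries on which the set was proposed, and edgeR called none of the 4. Agreement in sign over cultures was the only ground for singling them out. Of the 51 tested members, 37 were lower in all 3 KO cultures and 9 were higher in all 3 WT cultures. Some members could fall in both sets from these counts alone, and the share of all genes that do so is not given. The WT rises differed in size. Zfp938 had 4.12, 8.04 and 4.76 CPM at level 60 in the 3 WT cultures, against 4.05, 7.51 and 4.63 CPM at level 0. Zfp933 had 8.32, 9.90 and 7.10 CPM, against 6.20, 9.76 and 5.91 CPM.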

How the results depend on the processing

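The 0 calls in the tested comparisons held under every alternative with all libraries, except 1 (Zfp952) for WT 20 against 0 with voom. For 60 against 0 in KO cells, 3 calls became 5 with the replicate block, 5 with the mitochondrial covariate, 11 with voom, 6 with DESeq2, 1 on the compared groups only, 1 at an adjusted p under 0.01, and 0 on TPM with either pseudocount. For 60 against 20 in KO cells, 1 became 3 with the block, 5 with voom, and 0 with library sizes alone, on the compared groups only, on TPM with either pseudocount and at 0.01. For KO against WT at 60, 0 became 1 with the block and 2 with DESeq2. For WT 60 against 20, 0 became 1 with the block, 2 with voom and 1 with DESeq2. The block changed no other count of member calls. The shares of all genes called under these alternatives are not given here. The counts therefore show only how the calls depend on the processing.

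With library sizes alone the median of members was −0.14 for WT 60 against 0 and −0.82 for KO 60 against 0. On log2(TPM + 0.1) it was −0.073 for WT 60 against 0, −0.28 for WT 60 against 20, −0.57 for KO 60 against 20, −0.35 for the difference in response at 20 and −0.67 for that at 60. On log2(TPM + 1) it was −0.17 for KO against WT at 60 and −0.22 for the difference at 20. With members under 5% shared sequence only, a choice made after seeing the data, the latter median was −0.17. Over all genes, the median moved by 0.16 for KO against WT at both 0 and 20 when library sizes alone were used, by −0.22 for KO 60 against 0 and against 20, and by −0.14 for the difference at 60. The cause of these changes was not tested.

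Leaving out 1 library or, chosen after seeing the data, 1 number gave 0 to 1 calls for KO against WT at 0, 20 and 60 (Zfp951 without 6110), 0 to 3 for KO 60 against 0 and 0 to 0 for KO 60 against 20. The medians ran from −0.060 to 0.32 for WT 20 against 0, −0.16 to 0.19 for WT 60 against 0, −0.27 to −0.026 for WT 60 against 20, −0.51 to −0.15 for the difference at 20 and −0.64 to −0.32 for that at 60. Zfp949 for KO against WT at 20, 0.42 in full, ran from −0.17 to 1.28 and was −0.11 without WT 20 6110 and −0.17 without all libraries numbered 6110. Low members such as Zfp987, Zfp946 and Zfp981 are limited by depth, and duplicated members by shared sequence.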
